A study of Homo sapiens with 4 samples.

Results

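The m6A peaks of the 4 human HOX clusters are described here: every deposited peak whose summit lay inside the HOXA, HOXB, HOXC or HOXD window of build hg19. Members were chosen by position alone, and the rule used no measured value. They numbered 69 of 115281 peaks, 35 of the 63093 in the control list and 34 of the 52188 in the CDCA list. The windows were chromosome 7 from 27132000 to 27250000 for HOXA, chromosome 17 from 46604000 to 46810000 for HOXB, chromosome 12 from 54332000 to 54450000 for HOXC, and chromosome 2 from 176957000 to 177055000 for HOXD. They span 118, 206, 118 and 98 kb, or 540.0 kb in all.

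The cells were GES-1, a line of human gastric epithelial cells. Of 2 populations, 1 was labelled control, and the other was given chenodeoxycholic acid (CDCA), a primary bile acid, at 100 µM for 48 h. The study asked which sites of N6-methyladenosine (m6A) in RNA differ between them. Of its 4 samples, the 2 m6A immunoprecipitation libraries are used here, 1 per condition, and the 2 input libraries were not used here. There were no replicates, and therefore no test between conditions. The 95% intervals given are exact (Clopper-Pearson for shares, Poisson for counts) and cover counting error only. They also treat peaks as independent, although neighbouring peaks can lie on 1 transcript. The lists name no genes, so no check of the cell line against marker genes was made.

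HOX genes encode homeodomain transcription factors that give cells their position along the head-to-tail axis of the embryo. In each cluster the genes lie in a row, and their order matches the order in which they are used along that axis, so that low-numbered genes act in front and high-numbered ones towards the rear. Many adult epithelia keep a HOX pattern set during development. Long noncoding RNAs such as HOTAIR, in the HOXC cluster, and HOTTIP, at the HOXA13 end of HOXA, are made from the same clusters, several of them antisense to HOX genes. m6A is written onto RNA by a complex around METTL3 and METTL14, removed by ALKBH5 and FTO, and read by YTH-domain proteins that affect splicing, translation and decay. In messenger RNA it gathers in long internal exons and around the stop codon.

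A RefSeq gene table (GRCh38.p14) was used for names and neighbours only. It lists all 39 HOX genes, 11 in HOXA, 10 in HOXB, 9 in HOXC and 9 in HOXD. Between the outermost HOX genes it also lists 23 long noncoding RNA genes and 8 microRNA genes. HOXA13 and HOXB13 stand at the high-coordinate end of their clusters, while HOXC13 and HOXD13 stand at the low-coordinate end of theirs. This order was taken to be the same in hg19. A gene annotation and genome of build hg19 were not used here, so each peak is given by cluster and position, without a gene name, an exon or a sequence. The lists carry no strand, and a HOX messenger RNA and its antisense RNA could therefore not be told apart.

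All 4 HOX windows held m6A peaks in both libraries. HOXA had 13 control and 11 CDCA peaks, HOXB 7 and 5, HOXC 8 and 9, and HOXD 7 and 9. Over the 4 clusters the CDCA number was 97.1% of the control number (58.8 to 160.4), beside 82.7% (81.8 to 83.7) for the whole lists. The HOX interval includes the genome-wide ratio, so the numbers show no departure of the HOX clusters from it. Peaks lay at 6.48 per 100 kb in the control list (35 peaks, interval 24.4 to 48.7) and 6.30 in the CDCA list (34 peaks, 23.5 to 47.5). The density between the first and last peak of every chromosome, gene-poor stretches included, was 2.14 and 1.76.

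The listed density was not the same in each cluster. HOXA was the densest, with 11.0 control and 9.32 CDCA peaks per 100 kb, and HOXB the sparsest, with 3.40 and 2.43. The HOXB window is the longest, and its upper 109 kb held no peak of either list. Counting intervals were wide, at 6.92 to 22.2 for the 13 control peaks of HOXA and 2.81 to 14.4 for the 7 of HOXB. For the 11 and 5 CDCA peaks they were 5.49 to 19.7 and 1.62 to 11.7. When chromosome 7 was tiled in stretches of 118 kb, the length of the HOXA window, 1.26% of 1345 tiles held at least 13 control peaks and 1.19% held at least 11 CDCA peaks. HOXB was close to what its chromosome typically held: 41.1% of its 206 kb tiles held at least 7 control peaks and 47.6% held at least 5 CDCA peaks. For HOXC these shares were 12.3% in control and 4.85% in CDCA, and for HOXD 10.8% and 2.26%. The tile counts are a description of these 2 lists and include tiles without genes.

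**Figure D1:**
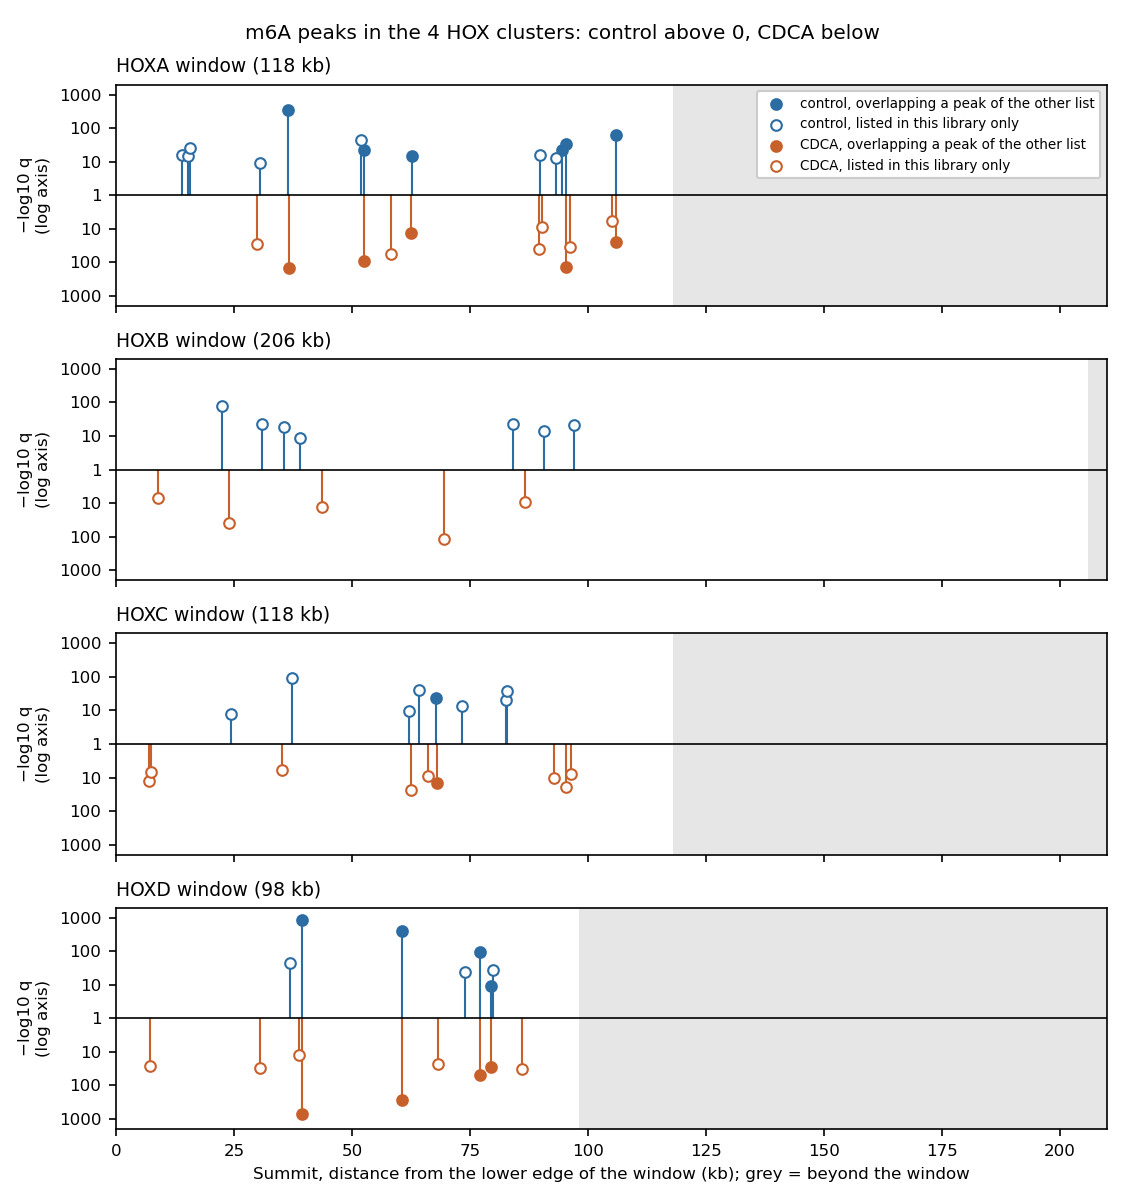
Position and significance of every HOX peak. Each line is 1 peak, placed by the distance of its summit from the lower edge of its window in kb, with control peaks drawn upwards and CDCA peaks downwards to their −log10 q on a log axis; filled circles overlap a peak of the other list and open circles do not. The tallest lines are the shared HOXD site near 39 kb, at 874 in control and 709 in CDCA, and HOXB holds open circles only.

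A pair of values given by the authors' peak caller describes each peak. Fold enrichment is the summit height over the local background, with 1 added to each. The −log10 q is the significance of the excess over background, and no listed peak was below a fold of 6. Each list was made separately against its own background, so values of the 2 lists set side by side cannot show whether methylation changed. HOX peaks had a median −log10 q of 23.3 in control (range 7.92 to 874) and 24.0 in CDCA (5.84 to 709), against 19.9 and 14.4 over the whole lists. At a −log10 q of at least 20 stood 21 of 35 control peaks (60.0%, 42.1 to 76.1), beside 49.8% of the whole control list. In the CDCA list 19 of 34 did (55.9%, 37.9 to 72.8), beside 33.8% of the whole list, which lies under that interval. This higher share came from HOXA, with 8 of 11 CDCA peaks, and HOXD, with 8 of 9, while HOXC had 1 of 9 and HOXB 2 of 5. In control, HOXD was also high, with 6 of 7, and HOXA had 7 of 13, HOXB 4 of 7 and HOXC 4 of 8. At a −log10 q of at least 100 there were 3 control peaks (8.57%, 1.80 to 23.1) and 5 CDCA peaks (14.7%, 4.95 to 31.1), beside 7.77% and 7.90% of the whole lists. Both of these whole-list values, and the control one at a level of 20, lie inside the HOX intervals. The levels of 20 and 100 were chosen with earlier results of these data known. The CDCA difference at 20 is therefore a description only.

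Median fold enrichment was 8.87 for control HOX peaks and 10.3 for CDCA HOX peaks, against 9.67 and 8.63 for the whole lists. Cluster by cluster the control medians were 8.87 in HOXA, 7.96 in HOXB, 8.13 in HOXC and 16.2 in HOXD. The CDCA medians were 17.3, 6.80, 7.43 and 14.5 in the same order. HOXD thus had a median above that of its whole list in both libraries, HOXB and HOXC had one below it in both, and HOXA had one above it in the CDCA list alone. The median HOX peak measured 238 bp in the control list and 258 bp in the CDCA list. The minimum length of 200 bp was found in 6 of 35 and 8 of 34 HOX peaks (17.1% and 23.5%), against 33.3% and 33.2% of the whole lists. The exact interval of 8 of 34 is 10.7 to 41.2%, which includes the CDCA list value. No interval was computed for 6 of 35, and the difference in length was not tested.

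The local background under the summits had a higher median at HOX peaks than in the whole list in control, and the same median in CDCA. Its median at HOX peaks was 2.18 in control and 1 in CDCA, in the scaled units of summit height, against 1.36 and 1 over the whole lists. The lowest level of the list, within 2%, was found at 2 of 35 control HOX peaks (5.71%, 0.700 to 19.2) and at 32.8% of all control peaks. In CDCA it was found at 8 of 34 HOX peaks (23.5%, 10.7 to 41.2) and at 37.3% of all peaks, a value inside the HOX interval. Both HOX shares were below those of the lists, and a difference between the libraries was not tested. The intervals treat neighbouring peaks as independent. In HOXA the median background was 2.02 in control and 0.800 in CDCA, beside the fold medians of 8.87 and 17.3. The share of the background in the difference between those fold medians was not tested.

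**Figure D2:**
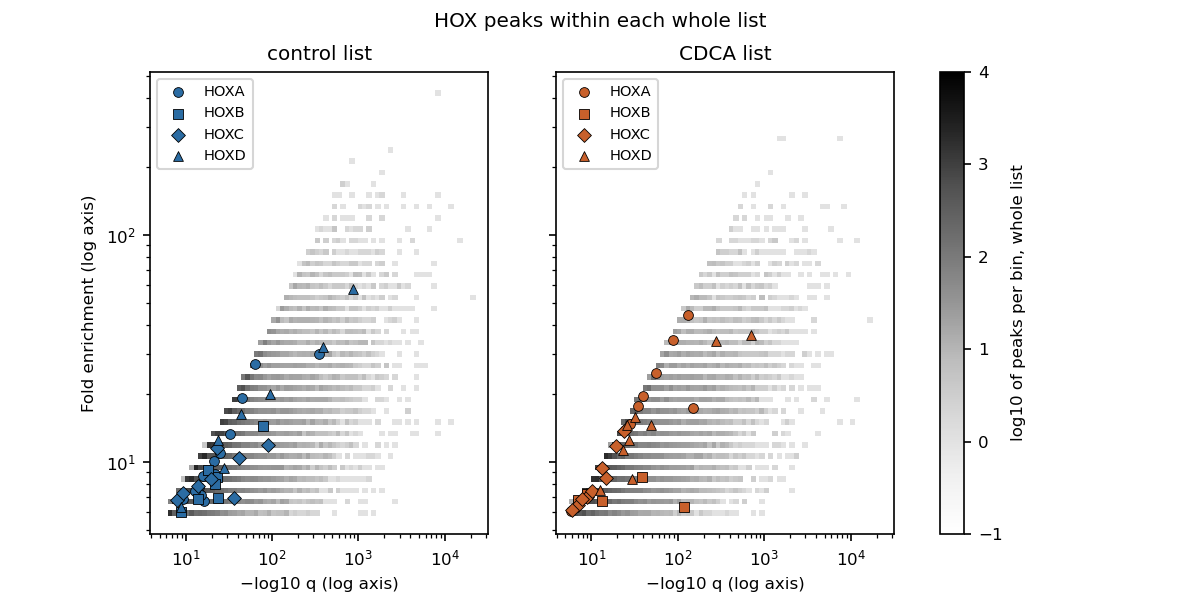
Fold enrichment (vertical, log axis) against −log10 q (horizontal, log axis) for the HOX peaks of the control list (left) and the CDCA list (right), over the whole list in grey, where darker bins hold more peaks. Symbols give the cluster; HOXD and HOXA hold the peaks of highest fold, up to 58.0 in control and 44.6 in CDCA, and the HOXB square at the lower right is the broad CDCA peak with a fold of 6.33 and a −log10 q of 119.

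Sharing was defined as an overlap of 1 bp or more with any peak in the other library. Such overlap was found in 11 of 35 control HOX peaks (31.4%, 16.9 to 49.3) and 10 of 34 CDCA HOX peaks (29.4%, 15.1 to 47.5). Over the whole lists the shares were 18.2% for control and 22.2% for CDCA, and both HOX intervals include these values. Merged into sites, the HOX peaks formed 58, of which 10 were in both lists (17.2%, 8.59 to 29.4), 24 in control only and 24 in CDCA only. The 10 shared sites were unevenly placed: 5 of 18 in HOXA, 4 of 12 in HOXD, 1 of 16 in HOXC and 0 of 12 in HOXB. The intervals of these shares overlap, from 9.69 to 53.5% in HOXA, 9.92 to 65.1% in HOXD, 0.158 to 30.2% in HOXC and 0 to 26.5% in HOXB.

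The shared portion was larger among stronger HOX peaks, as in the lists as a whole. Below a −log10 q of 20, 2 of 14 control and 2 of 15 CDCA HOX peaks were shared (14.3% and 13.3%, against 6.97% and 8.93% of all peaks of that strength). Between 20 and 50 it was 4 of 14 and 3 of 12 (28.6% and 25%, against 13.6% and 26.7%). Between 50 and 100 it was 2 of 4 and 1 of 2, beside 42.1% and 66.1% of all peaks. At 100 or more, 3 of 3 control and 4 of 5 CDCA HOX peaks were shared, beside 87.6% and 91.2% of all peaks. Every whole-list value lies inside the HOX interval of its class, but classes of 2 to 5 HOX peaks are too small to show a difference. The interval for the 2 CDCA peaks between 50 and 100, for example, ran from 1.26 to 98.7%. Shared HOX peaks had a median length of 277 bp in control and 485 bp in CDCA and a median fold of 13.3 and 16.0. Those listed in 1 library had medians of 229 and 228 bp and folds of 8.20 and 7.97. Over the whole lists the order was the same. Shared peaks there had medians of 390 and 381 bp and folds of 12.9 and 11.7, and the rest 218 and 213 bp and 9.19 and 8.22.

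**Figure D3:**
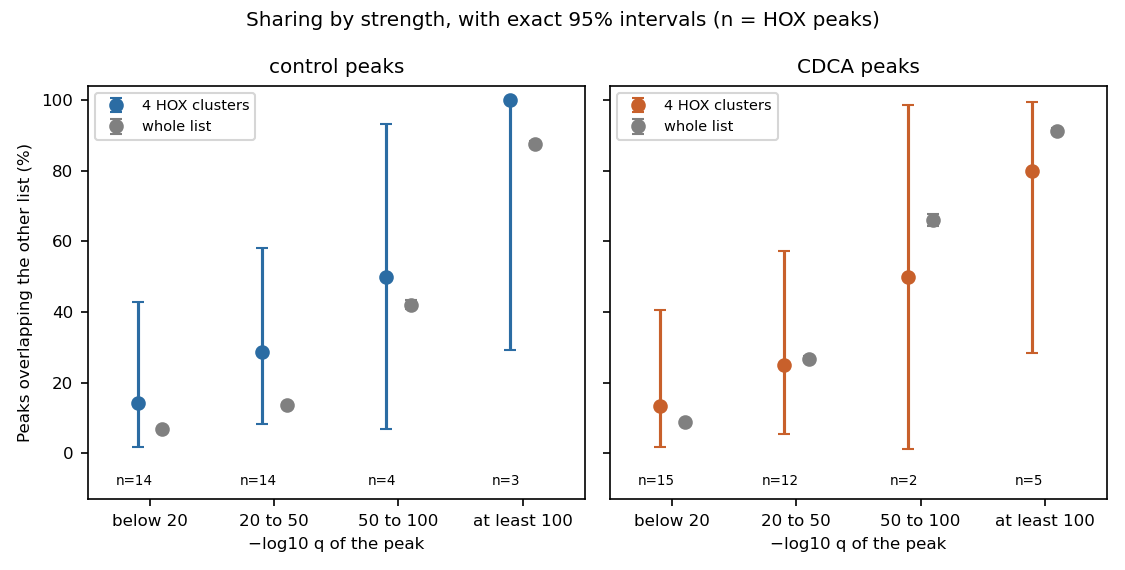
Share of peaks that overlap the other list (vertical, percent) by the −log10 q of the peak (horizontal, 4 classes), for control peaks (left) and CDCA peaks (right). Coloured points are HOX peaks with their number, grey points the whole list, and bars exact 95% intervals; the HOX intervals are wide, from 29.2% upwards for the 3 strongest control peaks, and each contains the grey point beside it.

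By summit height and −log10 q, HOXD carried the strongest m6A site of the 4 clusters in both lists. By fold it led the control list only, because a HOXA peak of the CDCA list had 44.6. How far the amount of RNA at a site enters these values was not tested. The control peak at chr2:176996089-176996537 had a summit height of 637, a fold of 58.0 and a −log10 q of 874, which put it at rank 488 of the control list, within its top 0.773%. Its CDCA partner at chr2:176995974-176996522 had a height of 612, a fold of 36.1 and a −log10 q of 709, rank 561 and within the top 1.07%. The summits were 10 bp apart. A second HOXD site was placed just as exactly, with summits 1 bp apart. It lay at chr2:177017430-177018193 in control (764 bp, the longest control HOX peak) and at chr2:177017452-177018173 in CDCA. Fold was 32.0 and 34.2 and −log10 q 393 and 279. These are the top 2 HOX peaks of each list by −log10 q, and both are shared.

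Farther from HOXD13, the other two shared HOXD sites were weaker. The control peak at chr2:177033811-177034305 (fold 19.9, −log10 q 94.7) met the CDCA peak at chr2:177033940-177034388 (14.6 and 48.8), with summits 68 bp apart. At chr2:177036258-177036523 the control peak was near the bottom of its list (6.35 and 8.90), and its partner at chr2:177036328-177036599 had 12.5 and 27.6. Next to it, 133 bp away from that CDCA peak, lay a control peak without partner at chr2:177036732-177036948 (9.37 and 27.8). The strongest HOXD peak listed in control only was at chr2:176993733-176994059 (16.2 and 43.7), and the third control-only peak at chr2:177030907-177031118 (12.5 and 23.5).

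CDCA-only HOXD peaks extended to both ends of the cluster. The most significant was at chr2:177043066-177043295 (fold 15.7, −log10 q 31.6), and 6118 bp separated it from any control peak. A peak at chr2:176964150-176964366 (14.5 and 25.8), towards HOXD13, stood 29367 bp from any control peak, the greatest distance of a HOX peak. Another 2 lay at chr2:176987252-176987607 (8.41 and 29.9) and chr2:177025082-177025487 (11.3 and 23.4). The fifth, at chr2:176995605-176995830 (7.53 and 12.6), was 259 bp from the strongest control site. Below position 176993733 the control list had 0 HOXD peaks and the CDCA list 2.

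HOXA held the most shared sites and the broadest HOX peak. Its strongest control peak, at chr7:27168212-27168705, had a height of 327, a fold of 29.8 and a −log10 q of 355, and all of its 494 bp lay inside the CDCA peak at chr7:27168191-27168711 (172, 17.3 and 149). At chr7:27184436-27185020 the order of the values was the opposite, with 10.1 and 21.6 in control and 34.3 and 89.0 for the CDCA peak at chr7:27184355-27184989. Next to that control peak lay one that was not shared, at chr7:27183910-27184131 (fold 19.1, −log10 q 45), the most significant HOXA peak listed in control only. It ended 224 bp before the CDCA peak. A weak pair at chr7:27194481-27194696 and chr7:27194455-27194697 had folds of 7.15 and 9.36 and −log10 q of 14.9 and 13.1.

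At the HOXA13 end, a single CDCA peak of 1295 bp at chr7:27226224-27227518 covered 2 separate control peaks whole. It had the highest fold of the CDCA HOX peaks (44.6), with a height of 88.3, a local background of 1 and a −log10 q of 133. The control peaks under it were at chr7:27226417-27226692 (8.87 and 21.9, background 3) and chr7:27227291-27227490 (13.3 and 32.6, background 2). The summit of the second was 18 bp from the CDCA summit and that of the first 872 bp. The last shared HOXA site began at the same base in both lists, at chr7:27237614-27237890 in control (26.9 and 62.9) and chr7:27237614-27237902 in CDCA (13.8 and 24.3).

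The HOXA peaks listed in 1 library formed near-miss groups and isolated ones. The strongest CDCA-only peak, at chr7:27190066-27190527 (fold 24.7, −log10 q 55.8), was 3954 bp from any control peak. CDCA peaks at chr7:27221525-27221754 (19.5 and 39.7) and chr7:27161674-27162072 (14.7 and 27.7) ended 46 and 254 bp from weaker control peaks, at chr7:27221800-27221999 (8.67 and 15.9) and chr7:27162326-27162525 (6.89 and 9.25). Another 3 control-only peaks stood together between 27145879 and 27147784, at 13890 to 15596 bp from any CDCA peak, with −log10 q of 14.4 to 25.2. The remaining control-only peak was at chr7:27225026-27225273 (7.47 and 12.8). CDCA-only peaks also stood at chr7:27228213-27228493 (17.6 and 34.2), 723 bp beyond the nearest control peak, at chr7:27222200-27222399 (7.14 and 8.99) and at chr7:27236736-27236935 (6.07 and 5.84). The last of these is the weakest HOX peak of either list by −log10 q. A stretch of 26.8 kb from 27194698 to 27221524 held no peak of either list, the longest such gap between peaks of a HOX cluster.

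HOXB had no shared site, and its 12 peaks were all listed in 1 library. The leading control peak, at chr17:46626359-46626660, had a height of 97.5, a fold of 14.4 and a −log10 q of 78.0. The nearest CDCA peak, at chr17:46627485-46628046 (8.60 and 38.8), was 825 bp away, the closest approach of the lists in this cluster. The leading CDCA peak, at chr17:46673303-46673980, was tall (271) and significant (−log10 q 119) at a fold of 6.33, just above the lowest listed fold. Its local background of 42.0 was the highest of all HOX peaks, and the nearest control peak was 13989 bp away. It was the only HOX peak with a −log10 q of at least 100 that had no partner.

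The next control peaks of HOXB were weak to moderate. They lay at chr17:46687969-46688209 (fold 6.92, −log10 q 23.6), chr17:46634826-46635059 (8.62 and 23.4) and chr17:46700858-46701081 (7.96 and 21.9). The remaining 3 had −log10 q of 8.79 to 18.1. Of the CDCA peaks, those at chr17:46647410-46647684 (6.73 and 13.3), chr17:46690562-46690761 (7.22 and 8.92) and chr17:46612852-46613051 (6.80 and 6.95) were all below 20. Towards HOXB13, the last HOXB peak ended 109 kb before the upper edge of the window, and both lists held 0 peaks in that stretch.

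HOXC had the lowest median −log10 q of the 4 clusters in the CDCA list (10.1), and the peaks of its 1 shared site overlapped by 7 bp. The control peak at chr12:54399775-54399999 (fold 11.5, −log10 q 23.3) and the CDCA peak at chr12:54399993-54400195 (8.50 and 14.6) had summits 197 bp apart. The strongest HOXC peak was control-only, at chr12:54369114-54369491, with a height of 129, a fold of 11.9 and a −log10 q of 90.8. The nearest CDCA peak, at chr12:54367083-54367282, was 1832 bp away and near the bottom of its list (6.12 and 5.98). Further control-only peaks were at chr12:54396133-54396455 (10.4 and 41.3) and chr12:54414800-54415037 (6.91 and 36.6). The other control-only peaks of HOXC had a −log10 q of 7.92 to 19.9.

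The most significant CDCA peak of HOXC, at chr12:54394209-54394693 (485 bp, fold 13.7, −log10 q 23.8), began 24 bp beyond a weak control peak at chr12:54393986-54394185 (7.32 and 9.42). It was followed by chr12:54427295-54427513 (11.8 and 19.1), 12258 bp from any control peak. It was 1 of 3 CDCA-only peaks that stood together near the upper end, between 54424717 and 54428647. At the HOXC13 end 2 CDCA peaks of 200 bp stood alone, between 54338831 and 54339405 (−log10 q 13.1 and 6.95), at 17176 and 16801 bp from a control peak.

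**Figure D4:**
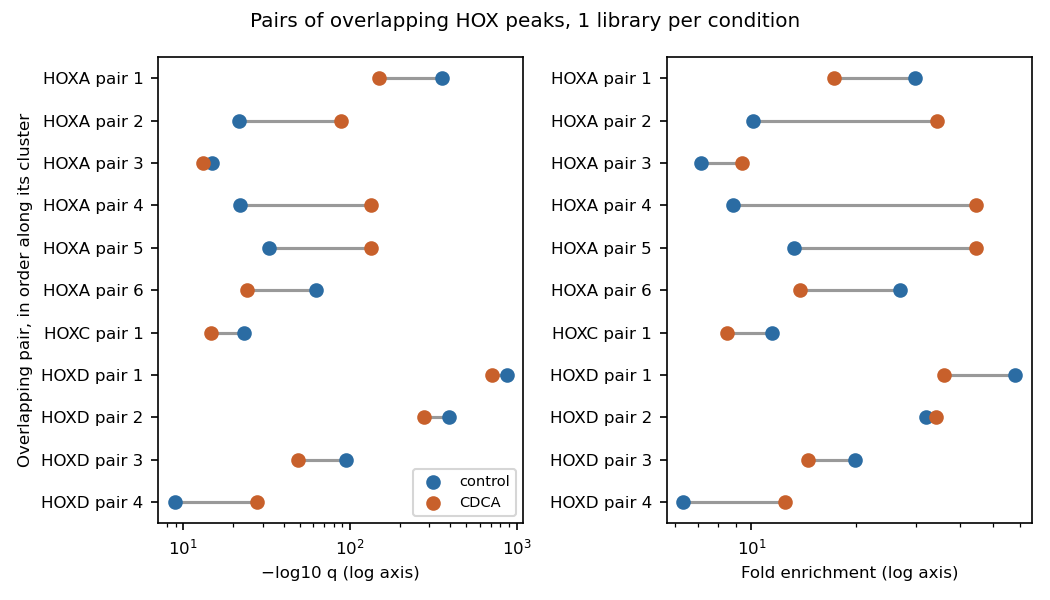
The 11 pairs of overlapping HOX peaks, numbered in order along each cluster, with −log10 q (left) and fold enrichment (right) on log axes; blue points are control and orange points CDCA. The control peak had the higher −log10 q in 7 pairs and the CDCA peak in 4, and for fold the numbers were 5 and 6. HOXA pairs 4 and 5 share the broad CDCA peak.

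The depth behind these peaks was read from the summit heights. Every height was a whole multiple of 1 step, within 0.02 of it. The step was 0.862 for control and 0.640 for CDCA, and 1 step is taken here to be 1 fragment. The weakest HOX summit then rested on 13 fragments in control and 15 in CDCA, and the tallest on 738 and 957, both at the strongest HOXD site. Fragment numbers of the 2 lists cannot be compared directly, because the step differed between them. In scaled height that HOXD site stood at 637 in control and 612 in CDCA. The broad HOXA peak of the CDCA list rested on 138 at its summit and the control peaks under it on 40 and 45. The 2 lone CDCA peaks at the HOXC13 end rested on 24 and 16. A peak missing from a list may have been under its thresholds, and the terms control-only and CDCA-only say no more than that.

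Each list numbers its peaks along the genome and leaves some numbers out. Between the first and last HOX peak of each cluster the control list held 35 of 58 numbers (60.3%) and the CDCA list 34 of 51 (66.7%), beside 57.3% and 52.1% over the whole lists. In HOXB, 13 of 20 control numbers and 5 of 10 CDCA numbers were not listed, the largest share of omissions in both lists. Between the control peaks on either side of the tall CDCA-only HOXB peak, 9 numbers were skipped, and the CDCA list skipped 1 beside the leading control-only HOXC peak. Beside the leading control-only HOXB peak the CDCA list skipped 0. In all, 17 of 24 control-only HOX peaks (70.8%, 48.9 to 87.4) had a skipped number in the other list between their neighbours, beside 73.2% of all control-only peaks. For CDCA-only peaks it was 15 of 24 (62.5%, 40.6 to 81.2), beside 63.2%. Both HOX shares are near those of the lists. What a skipped number stood for, and where, cannot be read from the lists.

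Of the 24 control-only HOX peaks, 5 lay within 300 bp of a CDCA peak (20.8%, 7.13 to 42.2), beside 4.34% of all control-only peaks. Of the 24 CDCA-only peaks, 5 lay within 300 bp of a control peak (20.8%, 7.13 to 42.2), beside 5.44% of all CDCA-only peaks. The same neighbours can be counted from both sides, the distance was chosen after the values had been seen, and the HOX windows held more peaks per 100 kb than the lists. The part of that density in the shares was not tested. Over 1 kb from the other list lay 17 control-only (70.8%, 48.9 to 87.4) and 16 CDCA-only HOX peaks (66.7%, 44.7 to 84.4), beside 87.0% and 84.4% of all such peaks. Taking both lists together, the nearest peak beyond a window was 55.7 kb from its edge for HOXA, 40.7 kb for HOXB, 17.1 kb for HOXC and 71.0 kb for HOXD. In HOXC the longest stretch between peaks inside the window was longer than that, at 24.5 kb. In HOXB the stretch of 109 kb without peaks below the upper window edge was longer than the 40.7 kb.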

How the data were processed

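Per the labels' protocols, RNA freed of ribosomal RNA was immunoprecipitated with an m6A antibody and sequenced from both ends. Tools named in the submitters' processing notes, with no role given, are MACS2 2.1.0 and TopHat2 2.0.13, and the build is hg19. Per the file headers, each deposited list gives position, summit height (a signal, the pileup), fold enrichment (a ratio), and −log10 of a p-value and of a q-value. Peaks were listed per library. The thresholds and the input for peak calling were not given in the sources used here. Interval files held the same positions.

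HOX peaks were taken by summit. Local background was height plus 1, over fold, minus 1. For HOX peaks with a −log10 p below 200, a Poisson tail with this background came within 2% of the listed value in 32 of 32 control and 32 of 32 CDCA cases. Distances run from edge to edge. Overlap steps were tested on simulated peaks. Named are all shared peaks, the 3 most significant per cluster and list, the leading library-specific ones, and extremes of length, height and fold; others named were chosen after their values were seen. Members and strength levels were chosen with earlier results of these data known. Plots were made with matplotlib 3.10.9 and values with scipy 1.17.1, pandas 2.3.3 and numpy 2.4.6 under Python 3.11.15.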

Additional observations from a re-analysis of the deposited data

How the results depend on the processing

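With peaks of a −log10 q of at least 20 only, 21 control and 19 CDCA HOX peaks were counted, and with a fold of at least 10, 15 and 17. Counting any base inside a window, or widening each window by 10 kb, gave 35 and 34 again. Neither setting could change the counts, because the nearest peak beyond any window was 17.1 kb away. The control list cut to the length of the CDCA list held 30. Shared HOX peaks stayed inside the original intervals under each alternative tried. For control they ranged from 22.9% (overlap of 50% of each peak, or summits within 100 bp) to 46.7% (fold of at least 10), and for CDCA from 23.5% to 41.2% under those settings. A gap of up to 200 bp gave 40.0% and 38.2%. No paired analysis was possible because each condition had 1 library and no test was run. The weakest HOX summits rested on 13 fragments in control and 15 in CDCA, and a site missing from a list may have been under its thresholds.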
